A study of Mus musculus with 66 samples.

Results

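3'READS of siRNA-treated C2C12 cells, a mouse line of muscle precursors, was used to follow the intronic polyadenylation sites (pAs) that control cells already use heavily. These major intronic pAs were the sites typed as intronic by the authors that held at least 10 reads in the pooled siCtrl libraries and at least 20% of all sense-strand pA reads of their gene there. They numbered 889, in 837 genes, out of 16766 intronic pAs and 59578 pAs of all types. Of the other intronic pAs, 1452 passed the reads minimum with a smaller share and are called minor sites here, and 14425 had fewer than 10 siCtrl reads. As the siCtrl reads chose the sites, their siCtrl levels are a description. Comparisons with siCtrl are set beside others whose reference library did not choose the sites.

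Most genes end their mRNA in the last exon, but a polyadenylation signal inside an intron can be used before that intron is spliced out. The transcript then stops early, with the upstream exons joined to a piece of intron, and the protein it could encode lacks the C-terminal part or is not made. Use of an intronic pA therefore depends on a race between cleavage and splicing as RNA polymerase II moves on. Paf1C is a complex that travels with the polymerase, and Paf1, Cdc73 and Ski8 are among its subunits. Intronic pAs that are heavily used in untreated cells often belong to known short isoforms, for example of receptors, kinases and of the cleavage factor gene Cstf3 itself.

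The cells were grown as myoblasts and received 50 nM siRNA for 48 h, either the control siRNA (siCtrl) or one directed at Paf1 (siPaf1), Cdc73 (siCdc73) or Ski8 (siSki8), whose gene symbol in the tables is Wdr61. Each of siCtrl, siPaf1 and siCdc73 had 1 library in batch 1 and 1 in batch 2, while siSki8 had a single library in batch 2, for 3'READS and likewise for RNA-seq. All libraries come from 1 cell line and knockdown was transient. Batch here means the replicate number in the library label, and the labels do not say that libraries of the same number were processed together. Nor do they say whether libraries came from separate cultures, so p-values measure the spread between these libraries.

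The last bases before cleavage are shown for sites on which the results below turn, to let the signal of each be read. Each stretch holds 30 bases of mm9 sequence on the transcript strand, 5′ to 3′, ending at the listed pA, and capitals mark the signal hexamer AATAAA or ATTAAA where it lies in these bases. The first group has a hexamer in view.
Errfi1 (chr4:150229887-150229916, plus strand): tgacttatatATTAAAggagtgaaaatgca
Zfhx4 (chr3:5246031-5246060, plus strand): tggtAATAAAcaagaatgacccaaacagaa
Lrp1 intron 13 (chr10:127026215-127026244, minus strand): cccttcacAATAAAgctctgggcacctcta
Npr3 (chr15:11823261-11823290, minus strand): aattttcAATAAAatgataacattatggta
Cstf3 (chr2:104449557-104449586, plus strand): tgcaacaacATTAAAacagtttcaatggtg
Chd9 (chr8:93409935-93409964, plus strand): gtgtatttacatataagtaAATAAAtcttt
Alcam (chr16:52389045-52389074, minus strand): cagtgtactcataaactaAATAAAatcttt
Eif4e2 (chr1:89124609-89124638, plus strand): ctgagatcacaAATAAAtggtgctaaacca
The second group held neither hexamer within 40 bases of the site.
Lrp1 intron 34 (chr10:127007834-127007863, minus strand): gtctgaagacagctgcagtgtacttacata
Fmn1 (chr2:113294363-113294392, plus strand): gaaacaaatgaatgatttttcagatctgca
Rab21 (chr10:114751802-114751831, minus strand): tgctttcaaagtaaatggagtggtaaaaca
Tle2 (chr10:81053184-81053213, plus strand): ggcactggggaaatataacacatttatcaa
Lmf1 (chr17:25733814-25733843, plus strand): tggtttgcaatacacacaatctgtgcgtta
Errfi1 and Cstf3 have the variant ATTAAA, and the signal sits close to the cleavage position in Chd9 and Alcam. The Lrp1 gene, which codes for a large endocytic receptor of the LDL receptor family, has a major site with AATAAA in intron 13 and another without a hexamer in intron 34 of 88.

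Over all 889 sites, AATAAA was found within 40 bases of the pA in 62.3%, ATTAAA without AATAAA in 17.0% and neither in 20.7%. The same shares were 54.5%, 18.6% and 26.9% for the minor sites and 54.6%, 16.9% and 28.4% for 19522 pAs in 3'-most exons. A run of 6 genomic As within 10 bases downstream, a feature of internal priming in oligo(dT) methods that 3'READS is designed to avoid, was present at 8.10% of major sites, 4.61% of minor sites and 0.220% of 3'-most exon sites. By annotation, 592 major sites (66.6%) lay in introns only and 209 (23.5%) within 50 bases of the annotated end of another transcript of the same gene, against 74.2% and 16.0% of minor sites. A further 68 fell in an exon of another transcript of the gene and 20 at an annotated end of another gene. The sites lay a median of 22562 bases from the TSS (25322 for minor sites). Among the 747 major sites in genes with at least 5 introns, 84 (11.2%) were in intron 1 and 93 (12.4%) in the last intron. Of the 869 sites placed in an intron of the annotation, 17.0%, 16.6%, 18.2%, 21.2% and 27.0% lay in 5 equal stretches of the gene from 5′ to 3′.

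In siCtrl cells the major sites took a median of 50.9% of their gene's reads, 456 took 50% or more, and 64 took every read counted for the gene. Read support was uneven. The median was 37 siCtrl reads, 255 sites had 10 to 19 reads, and the most used site had 64686. The siCtrl libraries differed by a median of 13.2 percentage points in the share of a site and by more than 20 points at 314 sites. Taken alone, the batch 1 library had 786 sites at 20% or more and the batch 2 library 801. With a minimum of reads also required in each library, 608 sites reached 20% in both.

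**Figure D1:**
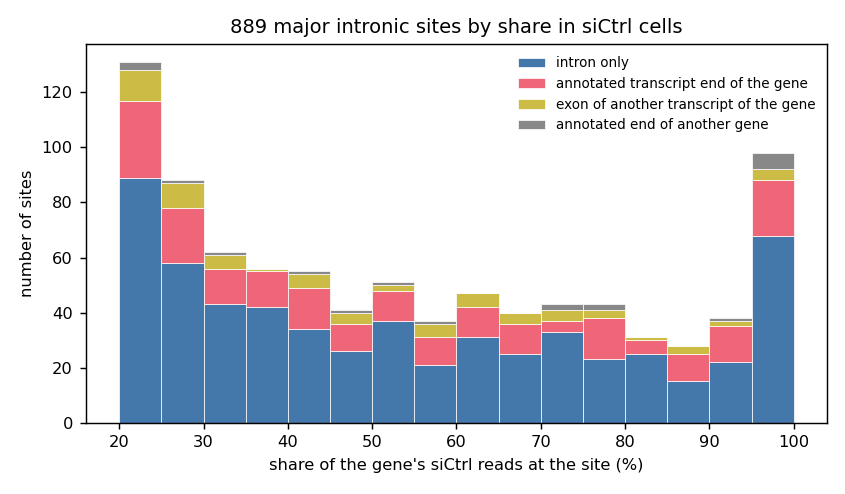
Number of major intronic pAs (vertical axis) by the share of their gene's pooled siCtrl reads in percent (horizontal axis, bins of 5 points), stacked by what the annotation places at the site. The sites spread over the whole range from 20% with a median of 50.9%, and the last bin holds the 64 sites with every read of their gene.

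Just inside the limit were sites of Elp3, Mtf2 and Ngef at 20.0%, and just outside it those of Trdmt1 (19.8%), 3110009E18Rik (19.8%) and Ston1 (19.7%). Reads of the 3 sites just inside came almost wholly from 1 siCtrl library, with 16 of the 16 reads at Elp3, 10 of 10 at Mtf2 and 18 of 19 at Ngef in batch 1.

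The most used site was that of Eif4e2, which codes for a cap-binding protein related to eIF4E. It lies at an annotated transcript end in intron 6 of 7 and held 100% of the gene's reads in all 7 libraries, with between 24092 and 40898 reads. The site of Msl1, a scaffold of the MSL histone acetyltransferase complex, held 94.1% and 90.5% in siCtrl, 94.1% and 87.9% in siPaf1, 90.7% and 88.8% in siCdc73 and 87.3% in siSki8. These 7 shares lie within a few points of each other. That of Nap1l1, a histone chaperone, held 62.9% and 34.3% in siCtrl, 65.1% and 25.4% in siPaf1, 34.6% and 29.3% in siCdc73 and 49.9% in siSki8, so that the siCtrl and siPaf1 libraries each lay far apart between batches. Sites of 2610005L07Rik (100% in every library), Masp1, a protease of the lectin pathway (92.8% to 98.3%), and 4933413G19Rik (86.2% to 97.7%) also kept nearly all reads of their genes in the 7 libraries. The other 4 of the 10 most read sites, in Tor1aip2, Chd9, Tatdn1 and Ncam1, are described with the knockdowns.

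PASS reads, the reads with an untemplated A tail that 3'READS counts, numbered 5302728 to 14340927 per library, and the RNA-seq libraries held 2796693 to 8160386 gene counts. In RNA-seq, Paf1 fell from 107 and 160 counts scaled to the library total (CPM) in siCtrl to 20.3 and 31.0 in siPaf1, Cdc73 from 109 and 98.4 to 14.2 and 22.0 in siCdc73, and Wdr61 from 49.7 and 129 to 5.97 in siSki8. Paf1 itself was at 264 and 418 CPM in siCdc73. Of 8 myoblast markers 5 were listed and all 5 exceeded 1 CPM in siCtrl, as did 3 of the 4 listed myotube markers and 1 of the 2 listed fibroblast markers, while none of the listed blood, endothelial or adipocyte markers did. The summed CPM of the myotube markers was 75.8 to 132 in the batch 1 libraries and 315 to 413 in those of batch 2, and its part in the results was not tested. The siPaf1 library of batch 2 stood apart in 3'READS, with 271 genes of at least 30 reads more than 20-fold above every other library. None of those genes holds a major intronic pA (0 sites), and the siPaf1 counts of the share and abundance tests with the batch term are also given without that library. With held-out controls that fit has no residual degrees of freedom and could not be tested.

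The share test asked whether the ratio of a site's reads to all other sense reads of its gene changed with a knockdown. It needed at least 5% of the pooled reads of the gene at the site, a gene mean of 20 reads and 10 other reads, and 672 of the 889 sites passed, among 2773 intronic pAs tested together. Of the rest, 151 were in genes under the mean, 64 had too few other reads and 2 had too small a share over all libraries. The median log2 change against siCtrl of the tested major sites was -0.38 for siPaf1, -0.33 for siCdc73 and -0.31 for siSki8, against 0.28, 0.46 and -0.13 over all 2773 sites. For siSki8, whose library is of batch 2, the medians with the batch term were -0.22 and 0.04. Of the 2773 sites, 1279 had under 10 siCtrl reads and passed on the reads of all libraries together, which favours a rise in a knockdown, and their medians were 0.66 for siPaf1 and 0.89 for siCdc73. Over the other 1494 the medians were -0.01, 0.12 and -0.24. As siCtrl reads also chose the sites, these medians do not measure a response on their own, and controls that had no part in the choice are used below.

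With so few libraries the fits leave few residual degrees of freedom, and the spread of a site is borrowed in part from other sites. A term for the batch was added, which pairs the libraries by replicate number and leaves fewer still. With it, siPaf1 raised the share of 34 major sites and lowered that of 49 at an adjusted p under 0.05 (edgeR quasi-likelihood test, Benjamini-Hochberg over 2773 sites). The background over all intronic pAs was 13.1% called higher and 2.96% called lower. For siCdc73 the counts were 36 higher and 52 lower, with a background of 13.6% and 2.42%. These comparisons share the same siCtrl libraries, so their likeness is not a result. Without the batch term, siPaf1 changed 1 site upward and 2 downward (background 1.66% and 0.0721%) and siCdc73 6 and 2 (background 3.17% and 0.0721%), and DESeq2 without the batch gave 11 and 19 (background 6.31% and 1.05%) for siPaf1 and 15 and 20 (background 7.25% and 0.793%) for siCdc73. Leaving out the siPaf1 library of batch 2 brought the siPaf1 calls with the batch term to 13 higher and 14 lower (background 5.52% and 0.685%). The background is selected too, as 202 of its 362 siPaf1 calls and 200 of its 376 siCdc73 calls upward were at the 1279 sites with under 10 siCtrl reads. The choice of major sites favours calls downward and that of the background calls upward, so nothing is read from the difference between them.

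To take the choice out of the comparison, sites were chosen in the siCtrl library of 1 batch and compared with the siCtrl library of the other. This comparison with the batch term was added after the data had been seen. As it drops a siCtrl library, it has fewer residual degrees of freedom than the fit of all libraries with that term. Its calls therefore lean more on spread borrowed from other sites. Choosing in batch 1 left 554 tested sites, 463 of them among the 672. Of these, 23 rose and 20 fell with siPaf1 (background 7.93% and 1.66%), and 20 rose and 19 fell with siCdc73 (background 8.37% and 0.938%). Choosing in batch 2 left 592 tested sites, 544 of them among the 672, of which 9 rose and 6 fell with siPaf1 (background 4.44% and 0.469%), and 13 rose and 7 fell with siCdc73 (background 5.81% and 0.469%). The medians were -0.22 for siPaf1, -0.21 for siCdc73 and -0.12 for siSki8 in the first choice and -0.15, -0.05 and 0.0075 in the second. Without the batch term they were 0.01, 0.03 and -0.12 in the first and -0.21, -0.14 and -0.03 in the second, so that the sign turned for siPaf1 and siCdc73 in the first choice and for siSki8 in the second. Over all 2773 sites, with the sites of few siCtrl reads among them, the medians with the term were 0.31, 0.53 and 0.09 and 0.31, 0.47 and 0.02. Sites of Errfi1, Mettl10, Nme7, Rab21 and Rbm15 rose with siPaf1 under both choices and those of Atrnl1, Lmf1, Mvk and Tle2 fell. With siCdc73, Errfi1, Nme7, Pde4b, Polr1d, Tor1aip2 and Zfhx4 rose under both, and Lrp1 (intron 34), Mvk, Ncam1, Smtn and Tle2 fell. Mettl10 and Polr1d were named here after their values were seen.

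Comparisons between knockdowns do not use siCtrl as the reference. The siCtrl libraries still enter the fit, through its spread and, with the batch term, through the batch difference. These comparisons are therefore not fully free of the choice. Against the siSki8 library and without the batch term, the median log2 change of major sites was -0.02 for siPaf1 and -0.08 for siCdc73, while minor sites stood at 0.48 and 0.69 and all intronic pAs at 0.43 and 0.57. As siSki8 is in batch 2 alone, the medians were also taken with the batch term, and were -0.07 and -0.09 for major sites, 0.31 and 0.55 for minor sites and 0.25 and 0.43 over all. Of major sites 49.4% lay above 0 for siPaf1 and 48.5% for siCdc73, against 60.9% and 69.1% of minor sites. A tested site needed 5% of the reads pooled over all libraries, siPaf1 and siCdc73 included, and 822 of 1452 minor sites passed the filters. That favours minor sites that are higher in these knockdowns. Without the batch term, sites with under 10 siCtrl reads had medians of 0.63 and 0.82 and the rest 0.24 and 0.38. Nothing is therefore read from the difference between major and minor sites. Between siPaf1 and siCdc73 the medians were 0.01 for major and -0.22 for minor sites. With the batch term, 24 major sites were higher and 12 lower in siPaf1 than in siSki8 (background 7.43% and 1.12%), and 22 were higher and 7 lower in siCdc73 than in siSki8 (background 7.93% and 0.577%). Without it the counts were 1 and 0 (background 0.252% and 0%) and 3 and 1 (background 0.541% and 0.0361%). For siPaf1 the counts with the batch term were 5 and 1 (background 2.42% and 0.108%) without its batch 2 library. The siSki8 group has 1 library, so these tests take its spread from the other groups.

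**Figure D2:**
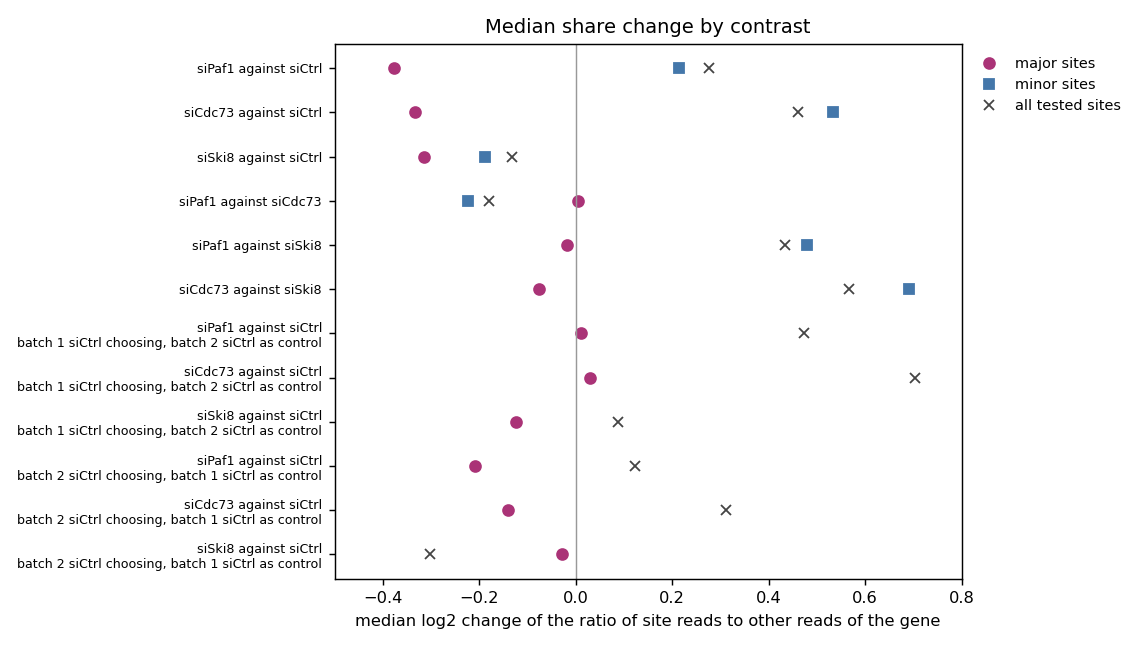
Median log2 change of the ratio of site reads to other reads of the gene, fitted without the batch term (horizontal axis), for each comparison (vertical axis), for major sites, minor sites and all tested intronic pAs, with the held-out control comparisons in the lower rows. Against siSki8 the major sites sit at -0.02 and -0.08 and the minor sites at 0.48 and 0.69. The filter on pooled reads favours minor sites that are higher in siPaf1 or siCdc73.

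The largest rise by p was at Errfi1, whose product is a feedback inhibitor of EGF receptor family kinases. Its site lies at an annotated transcript end in intron 1 of 3 and held 29% and 40.1% in siCtrl, 91.3% and 96.7% in siPaf1, 90.9% and 93.5% in siCdc73 and 23.9% in siSki8. The siSki8 value rests on 79 of 330 reads (95% Wilson interval 19.7% to 28.8%), and such intervals cover counting error only, as the reads carry no molecular identifiers here. All 4 siPaf1 and siCdc73 libraries were thus above 90%, and the siCtrl and siSki8 libraries at or below 40.1%. The log2 change against siCtrl was 5.00 ± 0.54 (SE) for siPaf1 and 4.44 ± 0.53 for siCdc73, with adjusted p of 7.4e-18 and 2.2e-14, and 0.0061 and 0.008 without the batch term (edgeR, 7 libraries). Against siSki8, which did not enter the choice, it was 6.20 ± 0.69 and 5.63 ± 0.68 with adjusted p of 3.2e-16 and 1.6e-13. Reads at the site itself rose. Their CPM was 2.99 and 5.98 in siCtrl, 98.8 and 242 in siPaf1, 97.3 and 139.7 in siCdc73 and 8.61 in siSki8, with log2 changes of 5.13 and 4.72 (adjusted p 1.0e-20 and 5.9e-19 in the abundance test).

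Rbm15, which codes for an RNA-binding protein of the spen family, has its site in its only intron (chromosome 3, position 107131958) and held 87.9% and 79.5% in siCtrl, 99.3% and 96.9% in siPaf1, 98.8% and 93.3% in siCdc73 and 81.1% in siSki8. All siPaf1 and siCdc73 values exceeded the siCtrl and siSki8 ones, with a log2 change of 3.31 ± 0.59 and an adjusted p of 1.2e-06 for siPaf1 and a log2 change of 2.31 ± 0.58 and an adjusted p of 0.001 for siCdc73. For Nme7, a nucleoside diphosphate kinase family gene (chromosome 1, position 166263061, intron 3 of 12), the shares were 70.8% and 75.8% in siCtrl, 95.9% and 96.9% in siPaf1, 95.2% and 95.3% in siCdc73 and 82.3% in siSki8, and the changes against siCtrl were 3.14 ± 0.71 and 2.67 ± 0.70 (adjusted p 2.1e-04 and 0.002). The site in intron 1 of Rab21, a small GTPase of early endosomes, took 31.5% and 34.1% in siCtrl, 75.9% and 73% in siPaf1, 52.6% and 49.9% in siCdc73 and 37.8% in siSki8. Its siPaf1 libraries stood highest (a log2 change of 2.55 ± 0.53 and an adjusted p of 4.5e-05), and siCdc73 at 1.09 ± 0.53 did not pass (adjusted p 0.16). Gxylt2, a xylosyltransferase gene, rose with siPaf1 from 14.5% and 26.6% to 60.5% and 89.4% (a log2 change of 3.81 ± 0.73 and an adjusted p of 7.6e-06), while its siCdc73 libraries lay far apart at 13.6% and 64.1%. The site of Gatad1 in the last of 4 introns held 58.3% and 33.6% in siCtrl, 81.3% and 82% in siPaf1, 74.6% and 66% in siCdc73 and 27.6% in siSki8, a rise with siPaf1 (2.41 ± 0.48, adjusted p 1.4e-05) and siCdc73 (1.51 ± 0.47, adjusted p 0.012). Without the batch term the adjusted p of these 5 genes for siPaf1 lay between 0.085 and 0.12.

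Sites of Zfhx4, Lrp1 and Fmn1 rose further with siCdc73 than with siPaf1. Zfhx4, a zinc-finger homeobox gene, has a site in intron 3 of 10 that held 50.8% and 47.4% in siCtrl, 78.8% and 78.2% in siPaf1, 96.5% and 97.1% in siCdc73 and 33.1% in siSki8. The siSki8 value rests on 41 of 124 reads (95% Wilson interval 25.4% to 41.7%). Its siCdc73 libraries lay above the siPaf1 ones and these above siCtrl, with a log2 change of 4.94 ± 0.54 and an adjusted p of 1.7e-17 for siCdc73 and a log2 change of 1.91 ± 0.51 and an adjusted p of 0.0029 for siPaf1. The direct difference, siPaf1 against siCdc73, was -3.04 ± 0.51 (adjusted p 1.0e-06). The intron 13 site of Lrp1 took 37.8% and 19.2% in siCtrl, 56.7% and 32.5% in siPaf1, 93.6% and 84.8% in siCdc73 and 14.5% in siSki8, which for siCdc73 was a log2 change of 4.53 ± 0.54 and an adjusted p of 9.4e-15 and for siPaf1 a log2 change of 1.04 ± 0.52 and an adjusted p of 0.18. At Fmn1, a formin gene that acts on actin filaments, the intron 2 site held 36% and 13.1% in siCtrl, 62.1% and 49.1% in siPaf1, 89.4% and 67.6% in siCdc73 and 11% in siSki8, with 3.79 ± 0.53 for siCdc73 and 2.09 ± 0.52 for siPaf1 (adjusted p 8.9e-11 and 0.0011). Here the direct difference of -1.71 ± 0.51 had an adjusted p of 0.031. Pde4b, a cAMP phosphodiesterase gene, used the site in its last intron (chromosome 4, position 102276052) at 40% and 40% in siCtrl, 76.2% and 82.6% in siPaf1, 92.1% and 91.9% in siCdc73 and 54.7% in siSki8, with 4.00 ± 0.68 for siCdc73 (adjusted p 1.7e-07) and 2.42 ± 0.68 for siPaf1 (adjusted p 0.0044), from 12 and 16 siCtrl reads. The well-read site of Tor1aip2, a torsin-interacting protein of the endoplasmic reticulum, moved within a narrow range. It went from 92.1% and 95.9% in siCtrl to 98.7% and 99.3% in siCdc73, which on the ratio scale was 2.65 ± 0.44 (adjusted p 6.9e-08). With siPaf1 the Tor1aip2 site was also called higher against siCtrl. Npr3, the clearance receptor for natriuretic peptides, had 43.6% and 60.9% in siCtrl, 80.8% and 75.6% in siPaf1, 84.2% and 82.3% in siCdc73 and 26.9% in siSki8 at its intron 2 site, and its difference from siSki8 was 3.21 ± 0.72 for siPaf1 and 3.67 ± 0.73 for siCdc73 (adjusted p 3.9e-04 and 2.4e-05). For Zfhx4, Lrp1, Fmn1, Pde4b and Tor1aip2 the siCdc73 rise also passed without the batch term (adjusted p 0.0041 to 0.04).

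Among sites that lost share, Tle2, a Groucho-family corepressor gene, showed the smallest p for siPaf1. Its site in the last intron held 98.8% and 100% in siCtrl, 39.4% and 53.6% in siPaf1, 54.8% and 60% in siCdc73 and 95% in siSki8. The siSki8 value rests on 19 of 20 reads (95% Wilson interval 76.4% to 99.1%). Every read of the gene but a few came from it in siCtrl, and all siPaf1 and siCdc73 libraries were at 60% or lower. The changes were -5.79 ± 0.78 and -5.16 ± 0.78 (adjusted p 2.8e-11 and 2.3e-09, and 0.0078 and 0.0094 without the batch term). Against siSki8 they were -2.74 ± 1.01 and -2.11 ± 0.94 and did not pass (adjusted p 0.067 and 0.17). Mvk, the mevalonate kinase of sterol synthesis, used its intron 7 site (chromosome 5, position 114903159) at 72.3% and 30% in siCtrl, 2.99% and 0.69% in siPaf1, 10.2% and 2.11% in siCdc73 and 11.8% in siSki8. The siCtrl libraries were far from each other, but both lay above the other 5, with changes of -5.30 ± 0.93 and -3.82 ± 0.90 (adjusted p 6.3e-07 and 3.9e-04). The siSki8 library was thus low as well, and the Mvk site was not called lower against siSki8 in either knockdown. Atrnl1, an attractin-like gene, had 56.7% and 48.4% in siCtrl, 4.55% and 9.01% in siPaf1, 12.6% and 17% in siCdc73 and 16.3% in siSki8 at its site in intron 26 of 27, so the siSki8 library was low as well, with 22 of 135 reads (95% Wilson interval 11% to 23.4%). Its changes were -3.66 ± 0.75 for siPaf1, -2.52 ± 0.73 for siCdc73 and -2.47 ± 0.93 for siSki8, with adjusted p of 3.1e-05, 0.0062 and 0.63. Rab36, a Rab GTPase gene, fell with siPaf1 (-3.96 ± 0.96, adjusted p 6.9e-04) from 19.1% and 26.8% to 0 of 129 reads, which allows a share of up to 2.33% (3 counts), and 1.74%. Against siSki8 it did not pass (-3.76 ± 1.36, adjusted p 0.061).

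The intron 34 site of Lrp1 fell with siCdc73 while the intron 13 site of the same gene rose. It held 43.7% and 58.8% in siCtrl, 18.2% and 40.2% in siPaf1, 1.93% and 2.78% in siCdc73 and 51.5% in siSki8, with a log2 change of -5.41 ± 0.55 and an adjusted p of 9.7e-20 for siCdc73 and a log2 change of -1.41 ± 0.52 and an adjusted p of 0.045 for siPaf1. Because both sites share the reads of 1 gene, a gain at one lowers the share of the other. In CPM the intron 34 site had 22.3 and 14.5 in siCtrl, 6.52 and 8.78 in siPaf1, 7.59 and 3.32 in siCdc73 and 9.27 in siSki8, and the intron 13 site 19.3 and 4.74 in siCtrl, 20.4 and 7.09 in siPaf1, 367 and 101 in siCdc73 and 2.62 in siSki8. In the abundance test with the batch term, siCdc73 lowered the downstream site (-1.79 on the log2 scale, adjusted p 0.001) and raised the upstream one (4.29, adjusted p 9.7e-18). Ppp2r1b, a scaffold subunit of protein phosphatase 2A, has its pair of major sites in intron 14, at positions 50689347 and 50689728 of chromosome 9. The first took 22% and 38.7% in siCtrl, 8.45% and 4.4% in siPaf1, 5.92% and 3.32% in siCdc73 and 50.7% in siSki8 and the second 20.3% and 38.7% in siCtrl, 3.52% and 3.63% in siPaf1, 4.73% and 4.49% in siCdc73 and 14.1% in siSki8. Both fell with siPaf1 and siCdc73 (log2 changes -2.74 and -3.19 at the first, -3.40 and -3.07 at the second, adjusted p 0.0016, 1.5e-04, 5.4e-05 and 3.0e-04), and the first was also lower in both than in siSki8 (adjusted p 3.3e-04 and 3.7e-05). In Lrp1 and Ppp2r1b the paired sites are thus not independent observations.

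Further sites lost share with siCdc73. Alcam, an immunoglobulin-family adhesion molecule, held 57.8% and 82.6% in siCtrl, 64% and 59.5% in siPaf1, 26.5% and 38.9% in siCdc73 and 62.2% in siSki8 at its intron 1 site, with a log2 change of -2.39 ± 0.52 and an adjusted p of 1.0e-04 for siCdc73, while siPaf1 at -0.66 ± 0.51 did not pass (adjusted p 0.44). Ncam1, the neural cell adhesion molecule that myoblasts also express, had 92.4% and 91% in siCtrl, 87.4% and 88.8% in siPaf1, 73.8% and 72.2% in siCdc73 and 89.4% in siSki8 at an annotated end in intron 15 of 17. Both siCdc73 libraries were below all others, at -2.03 ± 0.48 (adjusted p 5.1e-04). Smtn, which codes for smoothelin of contractile smooth muscle, had 66% and 49.7% in siCtrl, 40.9% and 20.1% in siPaf1, 19.1% and 11.7% in siCdc73 and 31.9% in siSki8 in its last intron, and Tlk2, a nuclear serine/threonine kinase gene, 42.9% and 13% in siCtrl, 16.8% and 3.13% in siPaf1, 19.5% and 2.06% in siCdc73 and 3.59% in siSki8 in intron 20 of 21. The changes for siCdc73 were -2.85 ± 0.64 and -2.21 ± 0.49 (adjusted p 1.6e-04 and 1.7e-04). The sites of Smtn and Tlk2 were also called lower with siPaf1 against siCtrl. At Tlk2 each batch 1 library lay above the batch 2 library of the same siRNA. None of the 4 falls with siCdc73 passed without the batch term (adjusted p 0.11 to 0.37), and none was called in the same direction against siSki8. Chd9, a chromodomain helicase gene, lost share with siPaf1. Its intron 2 site held 80% and 86.5% in siCtrl, 53.9% and 63.2% in siPaf1, 79.6% and 86.4% in siCdc73 and 86.7% in siSki8, so that siPaf1 alone was low, with a log2 change of -1.83 ± 0.46 and an adjusted p of 0.0014 against -0.03 ± 0.55 for siCdc73 (adjusted p 1.00) and a direct difference of -1.80 ± 0.47 (adjusted p 0.0078). Tatdn1, a putative deoxyribonuclease gene, fell from 82.2% and 90.2% to between 63.7% and 78.2% in the 5 knockdown libraries (siPaf1 -1.62 ± 0.48, siCdc73 -1.36 ± 0.48, adjusted p 0.0077 and 0.033). Against siSki8 the values were 0.39 ± 0.62 and 0.65 ± 0.61 and did not pass (adjusted p 0.80 and 0.64). Of the 29 calls of named sites for siPaf1 against siCtrl, 8 were made neither with a held-out control nor in the same direction against siSki8, at Cstf3, Itsn1, Lrp1 (intron 34), Mll5, Rab36, Sltm, Smtn and Tatdn1. For siCdc73 these were 6 of 29, at 2810453I06Rik, Il12rb1, Mll5, Rab36, Sdccag8 and Tatdn1. Those calls rest on the siCtrl reads that chose the sites. The other calls are not free of that choice either. Reads of both siCtrl libraries picked the named sites, and some were named by their p against siSki8.

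**Figure D3:**
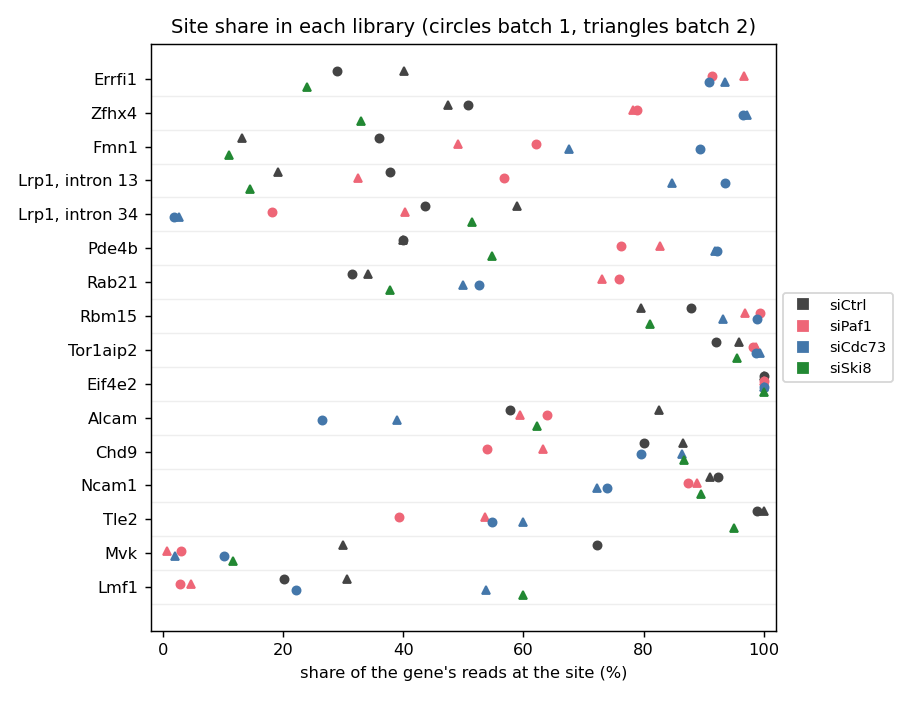
Share of the gene's reads at the site in percent (horizontal axis) for 16 major sites (vertical axis), 1 point per library, circles for batch 1 and triangles for batch 2, coloured by siRNA. Errfi1 has all 4 siPaf1 and siCdc73 points above 90% and the 3 others at or below 40.1%, and the Lrp1 sites of introns 13 and 34 move in opposite directions in siCdc73.

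Direct differences between siPaf1 and siCdc73 were tested with the batch term, without siCtrl as the reference. In siPaf1, 7 major sites were higher and 9 lower (background 1.26% and 2.06%). Without the batch term edgeR gave 0 and 0 (background 0% and 0%), with 13 and 19 at an unadjusted p under 0.05 (background 2.74% and 4.4%), and DESeq2 2 and 4 (background 0.216% and 0.397%). Leaving out the siPaf1 library of batch 2 gave 3 and 6 (background 0.325% and 0.721%) with the term. Lmf1, a lipase maturation factor of the endoplasmic reticulum, had 20.2% and 30.6% in siCtrl, 2.91% and 4.64% in siPaf1, 22.2% and 53.7% in siCdc73 and 59.9% in siSki8 at its intron 3 site. Both siPaf1 libraries lay below all others, at -3.89 ± 0.67 against siCdc73 and -4.61 ± 0.83 against siSki8 (adjusted p 1.9e-06 and 4.6e-06). Sdccag8, a centrosomal protein gene, had 52% and 48.4% in siCtrl, 70.7% and 68.1% in siPaf1, 20% and 16.2% in siCdc73 and 43.5% in siSki8 in intron 1, high in siPaf1 and low in siCdc73, with a difference of 3.26 ± 0.69 (adjusted p 3.1e-04). For Ccdc141 the shares were 18.8% and 49.3% in siCtrl, 29.7% and 28.8% in siPaf1, 3.53% and 8% in siCdc73 and 74.4% in siSki8, and the difference was 2.50 ± 0.67 (adjusted p 0.012). The Lrp1 sites differed by -3.48 ± 0.53 in intron 13 and 4.00 ± 0.55 in intron 34 (adjusted p 2.5e-08 and 4.4e-10). The other sites that passed, in Alcam, Chd9, Fmn1, Gxylt2, Lrrc9, Mbd5, Nin, Pvrl2, Rbbp8, Rgl1 and Zfhx4, made up the 16. Those of Lrrc9, Mbd5, Nin, Pvrl2, Rbbp8 and Rgl1 were named after their values were seen, to complete the list.

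No major site passed the test for siSki8 against siCtrl, with 0 higher and 0 lower with the batch term (background 0.0361% and 0%) and 0 and 0 without it (background 0% and 0%). At an unadjusted p under 0.05 edgeR without the batch gave 2 higher and 12 lower (background 1.01% and 1.3%), and DESeq2 gave 0 and 0 (background 0% and 0%) after adjustment. With 1 library the test can miss changes that it would show with more. The sites with the smallest p included Itsn1, an endocytic scaffold gene, with 68% and 64.8% in siCtrl, 83.8% and 85.8% in siPaf1, 80.4% and 91% in siCdc73 and 89.1% in siSki8 at chromosome 16, position 91870816, and on the other side Il12rb1, an interleukin-12 receptor chain, with 72.5% and 68.2% in siCtrl, 38.9% and 66.7% in siPaf1, 12.8% and 25.5% in siCdc73 and 5.41% in siSki8. The siSki8 value of Il12rb1 rests on 2 of 37 reads (95% Wilson interval 1.5% to 17.7%). The Il12rb1 site was lower with siCdc73 as well (-3.10 ± 0.95, adjusted p 0.01). With the batch term, the Itsn1 site was called higher against siCtrl with siPaf1 and with siCdc73. Cep70, a centrosomal protein gene, stood at 1.61% in siSki8 and between 14% and 59.6% elsewhere, and differed from siPaf1 and siCdc73 (3.35 ± 1.01 and 4.63 ± 1.05, adjusted p 0.017 and 3.6e-04) but not past the threshold from siCtrl (-3.19 ± 1.04, adjusted p 0.38). Pmm2, a phosphomannomutase of protein glycosylation, had 0 of 89 reads in siSki8, which allows up to 3.37%, and 7.69% to 31% elsewhere. The siSki8 shares of the other sites named by the rule were 85.7% for Tcf25, 99.2% for Mthfd1l, 95% for 2810453I06Rik, 86.7% for Slc24a6, 11.1% for Armc9, 4.5% for Naa15 and 39.5% for Phf7. Their adjusted p against siCtrl were 0.27 or higher.

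A share can change through the site or through the other ends of the gene. Over the 34 sites that siPaf1 raised, reads at the site changed by a median of 1.77 (log2 of CPM plus 0.1, mean of both batches) and the other reads of the gene by -0.70. For the 49 it lowered, the medians were -1.83 and 1.08. For siCdc73, the 36 raised sites had 2.16 and -0.11, and the 52 lowered ones -1.75 and 0.85. As the sites were selected on the ratio of these parts, the values describe them and test nothing. In the edgeR fit of all 25737 pAs with the batch term, 26 of the 34 and 31 of the 36 were called higher in site abundance (background 9.62% and 9.57%). Of the lowered sites, 24 of the 49 and 30 of the 52 were called lower (background 7.03% and 8.6%), with 1 of the 52 higher. That fit counts the same site reads as the share test, so the overlap is partly built in and is not independent support.

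**Figure D4:**
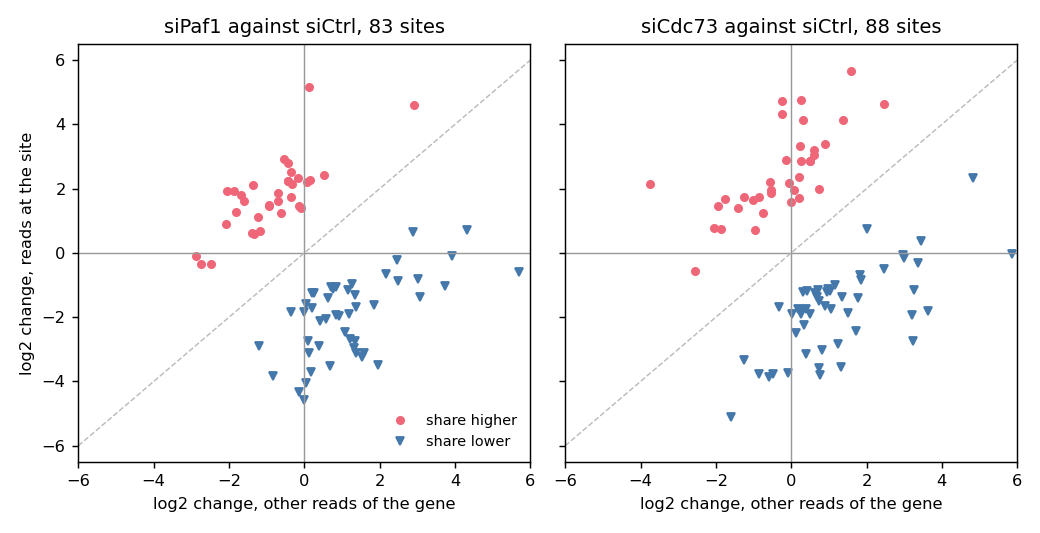
Log2 change of the CPM at the site (vertical axis) against that of the other reads of the gene (horizontal axis), mean of both batches with 0.1 CPM added, for the major sites called in the share test with the batch term, siPaf1 on the left (83 sites) and siCdc73 on the right (88). The dashed line marks equal change. Raised sites lie above it with a median site change of 1.77 and 2.16, and lowered sites below it with -1.83 and -1.75.

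Taken on its own, abundance could be tested at 805 of the 889 sites. The median log2 change against siCtrl was -0.23 for siPaf1, -0.43 for siCdc73 and -0.45 for siSki8, and selection on siCtrl reads bears on these values too. With the batch term, 88 major sites rose and 87 fell in siPaf1 (background 9.62% and 7.03% of all pAs), 90 and 106 in siCdc73 (background 9.57% and 8.6%) and 2 and 7 in siSki8 (background 0.268% and 0.385%). Without it edgeR called 0 in each, with 65 and 73 at an unadjusted p under 0.05 for siPaf1 (background 7.58% and 4.68%), 67 and 96 for siCdc73 (background 7.39% and 6.11%) and 4 and 34 for siSki8 (background 1.07% and 1.47%). DESeq2 called 19 and 15 (background 1.73% and 0.851%), 31 and 16 (background 2.18% and 1.09%) and 0 and 0 (background 0% and 0%) for the 3 knockdowns. Without its batch 2 library the siPaf1 counts with the batch term were 56 and 41 (background 4.74% and 3.56%). In bulk RNA, a lower level in fewer cells cannot be told apart from less RNA per cell.

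RNA-seq of the host genes, whose reads had no part in choosing the sites, was available for 421 of the 837 genes, of which 387 passed the filter on low counts. Their median log2 change was 0.02 for siPaf1, -0.11 for siCdc73 and -0.15 for siSki8. With the batch term 64 genes rose and 61 fell in siPaf1 (background 16.3% and 16.2% of 6521 genes), 53 and 87 in siCdc73 (background 19.4% and 20.5%) and 6 and 11 in siSki8 (background 2.93% and 2.5%). Without it the count was 0 for each in edgeR, with 37 and 40 at an unadjusted p under 0.05 (background 8.77% and 8.96%), 23 and 55 (background 9.94% and 11.2%) and 5 and 13 (background 2.45% and 3.08%), and DESeq2 called 6 and 12 (background 2.68% and 3.3%), 6 and 18 (background 3.96% and 4.36%) and 0 and 0 (background 0.046% and 0.0307%). The RNA-seq CPM of Errfi1 was 159 and 135 in siCtrl, 137 and 93.1 in siPaf1, 124 and 86.5 in siCdc73 and 395 in siSki8, with log2 changes of -0.37 for siPaf1 and -0.50 for siCdc73 that did not pass (adjusted p 0.23 and 0.084). That of Lrp1 was 4395 and 1429 in siCtrl, 3573 and 1109 in siPaf1, 3299.5 and 1084 in siCdc73 and 1073 in siSki8, with -0.41 for siCdc73 (adjusted p 0.11). Zfhx4 rose with siPaf1 (0.84, adjusted p 0.017) and Lmf1 fell with siCdc73 (-1.47, adjusted p 5.6e-05). Of the 34 sites raised by siPaf1, 17 had RNA-seq, with 1 gene higher and 2 lower, and of the 49 lowered, 29 had it, with 8 higher and 4 lower. For siCdc73 the raised sites had 23 measured genes with 3 higher and 2 lower, and the lowered sites 32 with 6 and 6.

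Position in the gene was set against the knockdowns with siSki8 as reference, without the batch term. For siPaf1 the median log2 share change of major sites was 0.08 in intron 1 (66 sites), 0.58 in intron 2 (47), -0.08 in the introns between (335), 0.00 in the last but one intron (53) and -0.03 in the last intron (74). For siCdc73 these medians were -0.11, 0.13, -0.13, -0.13 and -0.28. Minor sites in intron 1 (79) stood at 1.52 for siPaf1 and 1.20 for siCdc73, and those in the last intron (83) at 0.31 and 0.28. With the batch term the medians of major sites in this order were 0.33, 0.51, -0.15, -0.19, 0.05 for siPaf1 and -0.06, 0.09, -0.15, -0.25, -0.13 for siCdc73, and those of minor sites 1.26 and 1.32 in intron 1 and 0.04 and 0.18 in the last intron. The difference between major and minor sites was not tested, and the filter on pooled reads favours minor sites that are higher in siPaf1 or siCdc73. Of the 66 major sites in intron 1, 6 rose and 5 fell with siPaf1 against siCtrl and 4 rose and 5 fell with siCdc73 (with the batch term). The background over all tested sites was 13.1% and 2.96% for siPaf1 and 13.6% and 2.42% for siCdc73. Among the 79 minor sites in intron 1, 24 rose and 0 fell with siPaf1 and 21 rose and 0 fell with siCdc73. As these counts use the siCtrl reads that chose the sites, nothing is read from their difference.

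**Figure D5:**
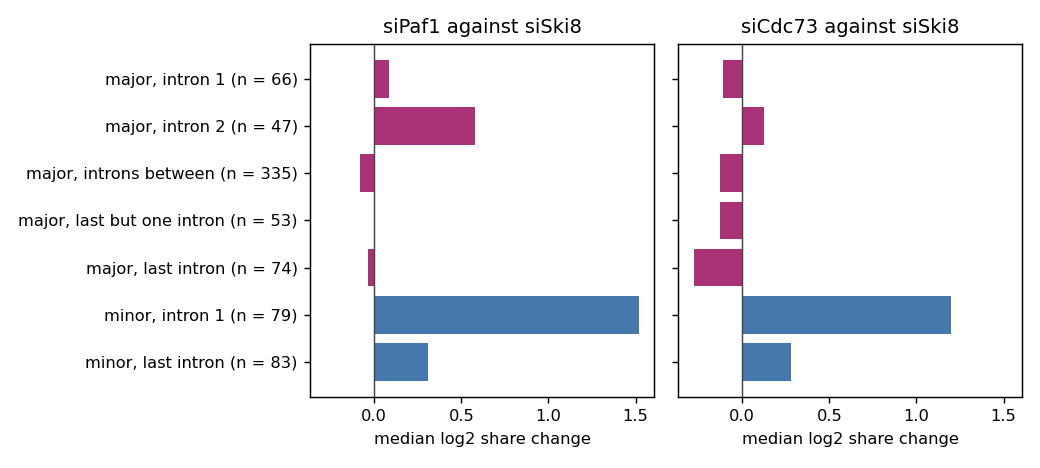
Median log2 share change against siSki8, without the batch term (horizontal axis), of major sites (upper 5 bars) and minor sites (lower 2 bars) by intron of genes with at least 5 introns, siPaf1 on the left and siCdc73 on the right, with n tested sites beside each name. Major sites in intron 1 sit at 0.08 and -0.11, minor sites in intron 1 at 1.52 and 1.20. The filter on pooled reads favours minor sites that are higher in siPaf1 or siCdc73.

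Other properties of the sites were described in the same way against siSki8, again without the batch term. Tested sites at an annotated end of their gene (172) had medians of 0.04 for siPaf1 and -0.34 for siCdc73, and those in introns only (427) of -0.01 and 0.04. By hexamer, sites with AATAAA (422) stood at -0.00 and -0.12, with ATTAAA (119) at 0.18 and 0.29, and without either (131) at -0.33 and -0.29. The 44 tested sites with a run of 6 As downstream had -0.61 and -0.45. Sites below 50% in siCtrl (389) had 0.05 and 0.15, and those at 50% or more (283) -0.11 and -0.39. With the batch term, in the same order and with siPaf1 first in each pair, the medians were 0.06 and -0.15, -0.12 and -0.06 by annotation, -0.06 and -0.15, 0.26 and 0.29, -0.36 and -0.22 by hexamer, -1.01 and -0.77 for the run of As and -0.01 and 0.04, -0.16 and -0.33 by siCtrl share. Per library, the median share over all major sites with gene reads was 53.1% and 48.7% in siCtrl, 46.8% and 41.7% in siPaf1, 47.1% and 42.9% in siCdc73 and 42.5% in siSki8, and the sites together held between 1.26% and 1.94% of PASS reads.

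Genes of a few functional lists were looked up among the major sites. Of 22 cleavage and polyadenylation factor genes, 1 has a major site. It is Cstf3, which codes for a subunit of the cleavage stimulation factor, with 34% and 48.8% in siCtrl, 76.3% and 83% in siPaf1, 63.6% and 49.1% in siCdc73 and 38.3% in siSki8 at an annotated end in intron 3 of 20. The siPaf1 libraries were highest, with a log2 change of 2.39 ± 0.76 and an adjusted p of 0.015, and siCdc73 at 0.72 ± 0.75 did not pass (adjusted p 0.60). Of 35 splicing factor genes in the table, 2 have one. Luc7l, a U1 snRNP-associated factor, had 20.9% and 50.7% in siCtrl, 14% and 29.4% in siPaf1, 17.9% and 35.2% in siCdc73 and 47% in siSki8 and did not pass in either knockdown (adjusted p 0.20 and 0.49), and Sltm, a SAFB-like RNA-binding protein, had 80.1% and 78.2% in siCtrl, 91.4% and 92.8% in siPaf1, 84.8% and 74.1% in siCdc73 and 78% in siSki8, with 1.64 ± 0.54 for siPaf1 (adjusted p 0.021) and 0.04 ± 0.63 for siCdc73 (adjusted p 0.99). Of 23 chromatin genes, Mll5, a SET-domain gene, has a site in intron 6 with 48.6% and 13.8% in siCtrl, 18% and 4.44% in siPaf1, 5.34% and 4.81% in siCdc73 and 15.5% in siSki8, and it fell with siPaf1 (-1.88 ± 0.66, adjusted p 0.033) and siCdc73 (-2.59 ± 0.68, adjusted p 0.0019) but did not pass against siSki8 (-1.72 ± 0.89 and -2.42 ± 0.87, adjusted p 0.26 and 0.059). Of 19 receptor genes, Egfr has 2 sites and Pdgfra 1, and none of the 3 passed in a comparison with siCtrl. The sites of Egfr, the EGF receptor, share intron 16 of 27 and held 29.2% and 26.7% in siCtrl, 17% and 17.1% in siPaf1, 37.5% and 44.1% in siCdc73 and 34.9% in siSki8 at the first and 43.8% and 62.8% in siCtrl, 43.4% and 42.1% in siPaf1, 50% and 41.2% in siCdc73 and 47.6% in siSki8 at the second, and that of Pdgfra, a PDGF receptor, ranged from 20% in siSki8 to 91.8% in a siCtrl library. None of the 6 Paf1C subunit genes has a major site (0 sites). Of 22 genes taken from the study's text, Zfhx4 and the glypican gene Gpc6 have one, and Gpc6, with 16.3% and 46.9% in siCtrl, 2.13% and 15.6% in siPaf1, 14.3% and 38.8% in siCdc73 and 36.4% in siSki8, did not pass for siPaf1 or siCdc73 (adjusted p 0.20 and 0.89).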

How the data were processed

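3'READS and RNA-seq were analysed from siRNA-treated C2C12 cells, 7 libraries each, grouped by the siRNA and the replicate number that the labels give. Per the submitters' processing notes and the study's methods, reads were mapped to mm9 with Bowtie2. Aligner versions are not given in the sources used here. The authors deposited, without normalization, counts of uniquely mapped PASS reads per pA site and counts of RNA-seq reads per RefSeq transcript over the coding region. The RPKM values that the authors also deposited entered no test. All per-sample columns were matched to samples by name (0 unmatched), and the ChIP-seq of the series was not used here. The authors' read mapping and their removal of internally primed reads are taken as given.

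Major sites and the gene lists were chosen with earlier results of these data known. The share test was edgeR 4.0.16 (R 4.3.3), a quasi-likelihood test of the isoform by knockdown interaction with 1 coefficient per library, over sites with at least 5% of the pooled gene reads, 10 reads at the site and 10 other reads, in genes with a mean of 20 reads. Site abundance and RNA-seq counts used TMM normalization, the filter on low counts and a prior count of 2. RNA-seq listed 9999 genes, each read from the transcript whose mean count was highest, and genes were matched by ID. Calls were made at a Benjamini-Hochberg adjusted p under 0.05. DESeq2 1.42.0 was an alternative. The share design without a batch term is the one the alternatives were set against, as the study's methods state no model over replicate libraries. The batch numbers are the replicate numbers of the labels. The batch difference of the log2 ratios correlated across sites between groups (r = 0.30 between siCtrl and siPaf1, 0.34 between siCtrl and siCdc73, 0.28 between the knockdowns). Log2 changes are given ± SE. This SE is the absolute log2 change divided by the square root of the F statistic of the edgeR test. It is thus derived from the test and is not a separate estimate of spread.

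Sequence and gene models came from a reference of the same build, mm9, and were read with pysam 0.24.0. Python 3.11.15, numpy 2.4.6, pandas 2.3.3 and matplotlib 3.10.9 made tables and figures. Of the sites, 23 coincide with a pA listed for another gene and 879 lie in genes found in the annotation. Wilson intervals are at 95% and a count of 0 allows up to 3 counts. Low totals, from 5302728 PASS reads and 2796693 RNA-seq counts, limit what can be seen at sites of few reads.

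Named sites were the 10 with most siCtrl reads. To these were added, for each knockdown against siCtrl and each direction, up to 6 with the smallest p in the fit with the batch that moved the same way in every batch in genes with a mean of 50 reads, up to 3 by the same rule for the other contrasts, those in listed genes, and the 3 on either side of the 20% limit. Alternatives were DESeq2, the batch as a block, no filter on low counts, the 3'-most exon as reference, library size scaling, held-out controls, other site limits and leaving out each library. The ratio of site to other reads, not the share itself, was tested.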

Additional observations from a re-analysis of the deposited data

Results flagged for a closer look

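For siPaf1 against siCdc73, the naming rule took up to 3 sites in each direction by smallest p. At these 6 sites the change under siPaf1 differed from that under siCdc73 by a test of the difference itself. The test was the edgeR fit with the batch as a block, adjusted over 2773 sites. Sites of Alcam, Chd9, Fmn1 and Gxylt2, named for other reasons, also passed it. The log2 difference, siPaf1 against siCdc73, was 4.00 at the intron 34 site of Lrp1 (adjusted p 4.4e-10), 3.26 at Sdccag8 (adjusted p 3.1e-04) and 2.50 at Ccdc141 (adjusted p 0.012), where the share was higher in siPaf1. It was -3.48 at the intron 13 site of Lrp1 (adjusted p 2.5e-08), -3.04 at Zfhx4 (adjusted p 1.0e-06) and -3.89 at Lmf1 (adjusted p 1.9e-06), where it was lower. In each of the 6 both siPaf1 libraries lay on 1 side of both siCdc73 libraries. None of the 6 passed without the batch term, and causes were not tested.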

How the results depend on the processing

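Of the values recomputed under the alternatives, 275 stayed within 1.5 times of the main count or 1 SD of the main median and 178 did not. The SD is that between the medians of the batch 1 and batch 2 pairs of libraries. In comparisons with siSki8 both pairs hold its single library. This SD is a rough yardstick and was as low as 0.0059 for the share, siPaf1 against siCdc73. A/B stands for A against B, counts are major sites (genes for RNA-seq) called at an adjusted p under 0.05, medians are log2, and the main values are those without the batch term in the results above. Only values that moved are given below. A background given for a setting in the results above applies to its counts here. For dropping the filter, the 3'-most exon and, without the block, held-out controls and left-out libraries, no share over all features is given. Nothing is read from the counts of those settings. The low depth of siCtrl reads (median 37 per site) and the single siSki8 library limit what can be called. With the replicate block the counts of calls rose for siPaf1 and siCdc73, while no major site was called in share for siSki8 against siCtrl under any alternative. Held-out controls changed the sign of the median for siPaf1 and siCdc73 when sites were chosen in batch 1 and no block was used. For siSki8 the median turned from -0.31 to 0.0075 when sites were chosen in batch 2 and the block was used. The held-out fits with the block and the fits with the block without siPaf1 replicate 2 were chosen after seeing the data. The causes were not tested.

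The replicate block (the batch, which pairs the libraries) gave, for share, siPaf1/siCtrl 34 higher and 49 lower, siCdc73/siCtrl 36 higher and 52 lower, siSki8/siCtrl median -0.22, siPaf1/siCdc73 7 higher and 9 lower, siPaf1/siSki8 24 higher and 12 lower, siCdc73/siSki8 22 higher and 7 lower. For abundance, siPaf1/siCtrl 88 higher and 87 lower, siCdc73/siCtrl median -0.38, 90 higher and 106 lower, siSki8/siCtrl 2 higher and 7 lower. For RNA-seq, siPaf1/siCtrl median 0.036, 64 higher and 61 lower, siCdc73/siCtrl 53 higher and 87 lower, siSki8/siCtrl median -0.041, 6 higher and 11 lower. DESeq2 gave, for share, siPaf1/siCtrl 11 higher and 19 lower, siCdc73/siCtrl 15 higher and 20 lower, siSki8/siCtrl median -0.38, siPaf1/siCdc73 median 0.031, 2 higher and 4 lower, siPaf1/siSki8 6 higher and 2 lower, siCdc73/siSki8 11 higher and 3 lower. The background was 1.77% and 0.144% for siPaf1/siSki8 and 2.38% and 0.108% for siCdc73/siSki8. For abundance, siPaf1/siCtrl median -0.26, 19 higher and 15 lower, siCdc73/siCtrl 31 higher and 16 lower, siSki8/siCtrl median -0.55. For RNA-seq, siPaf1/siCtrl median 0.053, 6 higher and 12 lower, siCdc73/siCtrl 6 higher and 18 lower. Dropping the filter on low counts gave, for share, siPaf1/siCtrl median -0.49, 0 lower, siCdc73/siCtrl median -0.45, 1 higher and 1 lower, siPaf1/siCdc73 median -0.0032, siPaf1/siSki8 0 higher, siCdc73/siSki8 0 higher and 0 lower. For abundance, siPaf1/siCtrl median -0.33, 11 higher and 18 lower, siCdc73/siCtrl median -0.50, 21 higher and 13 lower. For RNA-seq, siPaf1/siCtrl median 0.027, 2 higher and 6 lower, siCdc73/siCtrl 2 higher and 5 lower. Reading the site against the 3'-most exon only gave, for share, siPaf1/siCtrl 4 higher and 10 lower, siCdc73/siCtrl median -0.20, 5 lower, siSki8/siCtrl median -0.44, siPaf1/siCdc73 median -0.10, siPaf1/siSki8 1 lower, siCdc73/siSki8 median 0.18, 0 lower. Choosing sites in siCtrl batch 1 and the control of batch 2 gave, for share, siPaf1/siCtrl median 0.011, 4 higher and 1 lower, siCdc73/siCtrl median 0.029, siSki8/siCtrl median -0.12. Choosing sites in siCtrl batch 2 and the control of batch 1 gave, for share, siPaf1/siCtrl median -0.21, siCdc73/siCtrl median -0.14, 2 higher, siSki8/siCtrl median -0.029. The replicate block with choosing sites in siCtrl batch 1 and the control of batch 2 gave, for share, siPaf1/siCtrl median -0.22, 23 higher and 20 lower, siCdc73/siCtrl median -0.21, 20 higher and 19 lower, siSki8/siCtrl median -0.12. The replicate block with choosing sites in siCtrl batch 2 and the control of batch 1 gave, for share, siPaf1/siCtrl median -0.15, 9 higher and 6 lower, siCdc73/siCtrl median -0.053, 13 higher and 7 lower, siSki8/siCtrl median 0.0075. A share limit of 50% gave, for share, siCdc73/siCtrl median -0.46, siSki8/siCtrl median -0.27, siPaf1/siCdc73 median 0.21, siCdc73/siSki8 median -0.39. A minimum of 50 siCtrl reads gave, for share, siPaf1/siCtrl median -0.28, siPaf1/siCdc73 median 0.066. A share of 20% and a minimum of reads in each siCtrl library gave, for share, siPaf1/siCdc73 median 0.080. Scaling by library size alone gave, for abundance, siPaf1/siCtrl median -0.18, siCdc73/siCtrl median -0.49, siSki8/siCtrl median -0.31. For RNA-seq, siCdc73/siCtrl median -0.26, siSki8/siCtrl median -0.49.

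Leaving out each library in turn without the batch term gave these ranges. For share, siPaf1/siCtrl median -0.46 to -0.24, siPaf1/siCtrl higher 0 to 1, siPaf1/siCtrl lower 0 to 2, siCdc73/siCtrl median -0.47 to -0.18, siCdc73/siCtrl higher 2 to 7, siSki8/siCtrl median -0.37 to -0.30, siPaf1/siCdc73 median -0.18 to 0.17, siPaf1/siSki8 higher 0 to 1, siPaf1/siSki8 lower 0 to 1, siCdc73/siSki8 median -0.16 to 0.076, siCdc73/siSki8 higher 0 to 4, siCdc73/siSki8 lower 0 to 2. For abundance, siPaf1/siCtrl median -0.41 to -0.070, siPaf1/siCtrl higher 0 to 2, siCdc73/siCtrl median -0.64 to -0.24. For RNA-seq, siPaf1/siCtrl median -0.067 to 0.18, siPaf1/siCtrl higher 0 to 1, siPaf1/siCtrl lower 0 to 1, siCdc73/siCtrl median -0.34 to 0.023, siSki8/siCtrl median -0.20 to -0.051. With the replicate block and without siPaf1 replicate 2, for share, siPaf1/siCtrl median -0.32, 13 higher and 14 lower, siPaf1/siCdc73 median 0.070, 3 higher and 6 lower, siPaf1/siSki8 median 0.020, 5 higher and 1 lower. For abundance, siPaf1/siCtrl median -0.24, 56 higher and 41 lower.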
